A study of Mus musculus with 2 samples.

Results

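The miR-15 and miR-16 family, with its relatives miR-195, miR-497 and miR-322, was examined in small RNA libraries of J1 mouse embryonic stem (ES) cells. Its members were the miRNA hairpins Mir15a, Mir16-1, Mir15b, Mir16-2, Mir322, Mir195a, Mir195b, Mir497 and Mir497b, chosen by symbol from the mouse gene annotation, which made 9 of the 1174 hairpins used. A hairpin is the folded precursor whose 5p and 3p arms can each give a mature miRNA. At least 1 read matched 8 of the 9 members, against 814 of the 1174 hairpins, and Mir195b had 0 reads in both libraries. Counted reads came from tags, that is distinct read sequences, that matched a hairpin along their whole length without mismatch.

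J1 is an established line of mouse ES cells, and it was grown here on gelatin with LIF and Knockout Serum Replacement. The cells received 1 mM AICAR, a nucleoside that cells turn into an AMP mimic and that activates the AMP-activated protein kinase, or the same volume of the solvent DMSO, and RNA was taken after 24 h. Each condition had 1 library. There was therefore no replicate check, no p-value is given, and every interval below is a 95% interval of counting error only. PCR reads without molecular identifiers are not independent molecules, so the intervals may understate even that error.

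The DMSO library held 18870345 clean reads and the AICAR library 21091226, so 1 read was worth 0.0530 and 0.0474 RPM (reads scaled to 1000000 clean reads). Hairpins took 11.6% of clean reads in DMSO and 15.7% in AICAR, and tags shorter than 21 nt took 9.49% and 3.81% of the hairpin reads. Both differences run between the same 2 libraries as the treatment, and their part in the results below cannot be told apart from it. All 6 miR-290 cluster hairpins of the ES cell list that were found had reads, and their sum was 33058 RPM in DMSO and 57222 RPM in AICAR. The lists of other cell types summed to 202 and 190 RPM for fibroblast hairpins, with Mir214 at 0, to 157 and 203 RPM for muscle, to 257 and 410 RPM for neurons, to 16.5 and 15.8 RPM for blood, with Mir223 at 0, and to 2.92 and 25.4 RPM for the liver hairpin. The part of other cells in the family's values was not tested.

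Members of this family are best known as brakes of the cell cycle. A mature miRNA guides an Argonaute protein to mRNAs that pair with its bases 2 to 8, the seed, and so lowers their translation and stability. The shared seed of this family pairs with sites in mRNAs of D-type and E-type cyclins and of other regulators of the passage from G1 to S phase, and the pair Mir15a and Mir16-1 is known for its loss in chronic lymphocytic leukaemia, where Bcl2, an inhibitor of apoptosis, is among its targets. Mouse ES cells divide fast and have a short G1 phase.

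The mature sequences below are those of RefSeq, placed on the mouse assembly GRCm38, and the seed is in capitals. The first set is shown because the arms in it share the seed and differ only outside it.

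miR-15a-5p: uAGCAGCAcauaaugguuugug
miR-15b-5p: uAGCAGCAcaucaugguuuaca
miR-16-5p: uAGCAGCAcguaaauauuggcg
miR-195a-5p: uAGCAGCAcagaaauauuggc
miR-195b: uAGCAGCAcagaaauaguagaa
miR-497a-5p: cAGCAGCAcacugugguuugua
miR-322-5p: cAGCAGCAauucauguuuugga

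The opposite arms and the antisense miRNA are shown because each of them has other bases 2 to 8, so that none belongs to the family by its seed.

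miR-15a-3p: cAGGCCAUacugugcugccuca
miR-15b-3p: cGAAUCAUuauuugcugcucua
miR-16-1-3p: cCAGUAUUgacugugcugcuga
miR-16-2-3p: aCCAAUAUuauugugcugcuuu
miR-195a-3p: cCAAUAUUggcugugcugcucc
miR-497a-3p: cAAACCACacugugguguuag
miR-322-3p: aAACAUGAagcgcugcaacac
miR-497b: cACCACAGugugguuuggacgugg

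Of the 1738 mature miRNA entries in the RefSeq table, 10 names carried the family seed, and 3 of these, miR-6342, miR-6353 and miR-6419, lay outside the members. Each of these 3 hairpins had 0 reads in both libraries, as had Mir195b, and a count of 0 allows up to 0.159 RPM in DMSO and 0.142 RPM in AICAR. Arms were counted around their most abundant tag, and a tag was taken for an arm when its start lay no more than 2 nt, and its end no more than 4 nt, from those of that tag.

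The hairpins lie at separate places in the mouse genome, given here on GRCm38. Mir15a (chr14:61632027-61632110, minus strand) lies in an intron of Dleu2, a long noncoding RNA gene, and Mir16-1 (chr14:61631880-61631972, minus strand) lies partly in an exon of the same gene. Mir15b (chr3:69009772-69009835, plus strand) and Mir16-2 (chr3:69009902-69009996, plus strand) lie in introns of Smc4, which encodes a condensin subunit needed for chromosome compaction in mitosis. The hairpins of Mir497 (chr11:70234717-70234800) and Mir195a (chr11:70235042-70235135) lie on the plus strand of chromosome 11 and overlapped no annotated gene other than miRNA hairpins. Mir497b (chr11:70234692-70234816) lies on the minus strand, and all 84 bases of Mir497 fall inside it. Mir322 (chrX:53054255-53054349, minus strand) and Mir195b (chr2:56785811-56785907, plus strand) overlapped none either.

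The family seed was read more often in the AICAR library. The 6 seed-bearing arms with reads summed to 8160 reads in DMSO and 17159 in AICAR, or 432 and 814 RPM, a fold change (FC, AICAR over DMSO) of 1.88 with a counting interval of 1.83 to 1.93. They made up 0.374% of hairpin reads in DMSO and 0.518% in AICAR, so that against hairpin reads the FC was 1.38. In both libraries the sum was mostly miR-16-5p and miR-15b-5p.

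**Figure D1:**
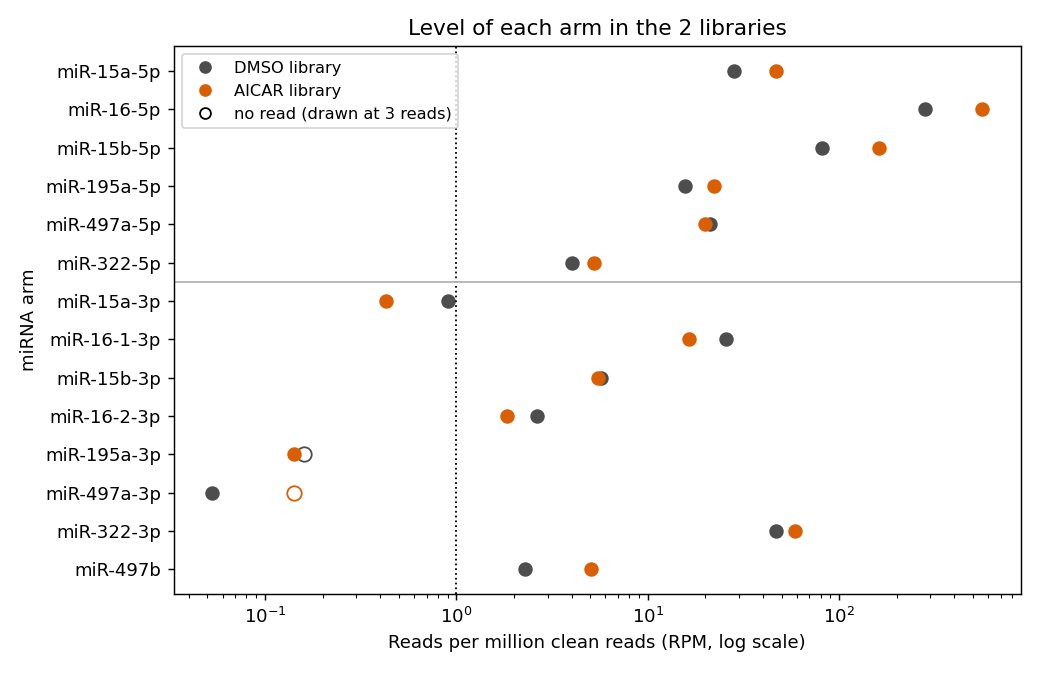
Level of the 14 arms with a read, in RPM on a log axis, with 1 point for each library. The 6 arms above the grey line carry the family seed, the dotted line marks 1 RPM, open circles stand for arms with no read and are drawn at 3 reads, and miR-16-5p is farthest right at 282 RPM in DMSO and 558 RPM in AICAR.

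Of the 14 member arms with a read, 11 reached 1 RPM in at least 1 library, and miR-15a-3p, miR-195a-3p and miR-497a-3p did not. Among the 11 arms, 1 reached an FC of 2, miR-497b, where 12% of all 508 hairpin arms that passed the same filter did, and 0 had an FC of 0.5 or lower, where 10% of all arms did. The counting interval lay wholly above 1 for 6 of the 11 arms (38.8% of all arms), wholly below 1 for 1 arm (27% of all arms) and across 1 for 4 arms. These shares depend on read depth. With a filter of 10 RPM, 5 of 7 member arms lay above 1 (51.8% of all 272 arms) and 1 below 1 (32.7%). Against hairpin reads 4 of the 11 arms lay wholly above 1 (19.1% of all arms) and 4 wholly below 1 (51.2% of all arms). The latter were miR-497a-5p, miR-16-1-3p, miR-15b-3p and miR-16-2-3p. The median FC was 1.29 over the 11 arms and 1.53 over the 6 seed-bearing arms, against 1.10 over all 508 arms, of which 56.9% were higher in AICAR. The middle 50% of all arms lay between FC 0.719 and 1.54.

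miR-16-5p, made from both Mir16-1 and Mir16-2, was the most abundant member. It had 5319 reads in DMSO and 11771 in AICAR, or 282 and 558 RPM (FC 1.98, interval 1.92 to 2.05), and moved from rank 56 to rank 43 among hairpin arms. It made up 65.2% of the seed-bearing reads in DMSO and 68.6% in AICAR. miR-15b-5p, which shares the Smc4 transcript with Mir16-2, had 1540 and 3406 reads, or 81.6 and 161 RPM (FC 1.98, interval 1.86 to 2.10), and moved from rank 110 to rank 80.

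These arms kept the same proportion to each other. There were 3.45 reads of miR-16-5p for each read of miR-15b-5p in DMSO and 3.46 in AICAR, and the ratio of the 2 values was 1.00, with an exact interval of 0.934 to 1.07. Such a ratio of reads does not depend on the library total. In all, 17 pairs of member arms were compared in this way. The pairs were chosen and many share an arm, so they are not independent. Pairs of other arms were not compared, so how often such an interval leaves out 1 is not known for all arms.

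miR-15a-5p, which comes from the Dleu2 locus with Mir16-1, had 532 and 982 reads, or 28.2 and 46.6 RPM (FC 1.65, interval 1.49 to 1.84). Its FC was smaller than that of miR-16-5p, with a ratio of the fold changes of miR-16-5p and miR-15a-5p of 1.20 (interval 1.07 to 1.34). The same ratio of miR-15b-5p to miR-15a-5p was also 1.20 (interval 1.06 to 1.35). Neither difference was stable to the tags counted. With tags of at least 21 nt the ratios to miR-15a-5p were 1.12 for miR-16-5p (interval 0.996 to 1.26) and 1.10 for miR-15b-5p (interval 0.968 to 1.25). With only the most abundant tag of each arm they turned to 0.892 (interval 0.752 to 1.06) and 0.851 (interval 0.710 to 1.02), with miR-15a-5p at the highest FC, 2.51.

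The pair on chromosome 11 stood lower. miR-195a-5p had 296 and 468 reads, or 15.7 and 22.2 RPM (FC 1.42, interval 1.22 to 1.64). miR-497a-5p, from the neighbouring hairpin on the same strand, had 397 and 422 reads, or 21.04 and 20.01 RPM (FC 0.951, interval 0.827 to 1.09), and its interval included 1. The reads of miR-195a-5p for each read of miR-497a-5p went from 0.746 to 1.11, and the ratio of these values was 1.49 (interval 1.21 to 1.83). With only the most abundant tag of each arm it went from 1.00 to 1.39. Against miR-497a-5p, miR-16-5p went from 13.4 to 27.9 reads for each read, a ratio of 2.08 (interval 1.80 to 2.40). The share of miR-497a-5p in the seed-bearing reads was 4.87% in DMSO and 2.46% in AICAR.

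miR-322-5p, known as the mouse counterpart of human miR-424, was the least abundant seed-bearing arm with reads. It had 76 and 110 reads, or 4.03 and 5.22 RPM (FC 1.29, interval 0.958 to 1.76), and its interval included 1. With hairpin reads as the denominator its FC was 0.952, on the other side of 1. Its ratio to miR-15a-5p could not be told apart between the libraries at this depth, at 1.28 for miR-15a-5p over miR-322-5p (interval 0.921 to 1.76), and it was 2.09 with only the most abundant tags (interval 1.33 to 3.25).

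In DMSO the order of the seed-bearing arms by reads was miR-16-5p, miR-15b-5p, miR-15a-5p, miR-497a-5p, miR-195a-5p and miR-322-5p. In AICAR miR-195a-5p stood before miR-497a-5p, with 468 against 422 reads, and the rest of the order was the same. Read counts of different miRNAs are not corrected for how well each sequence takes an adaptor.

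**Figure D2:**
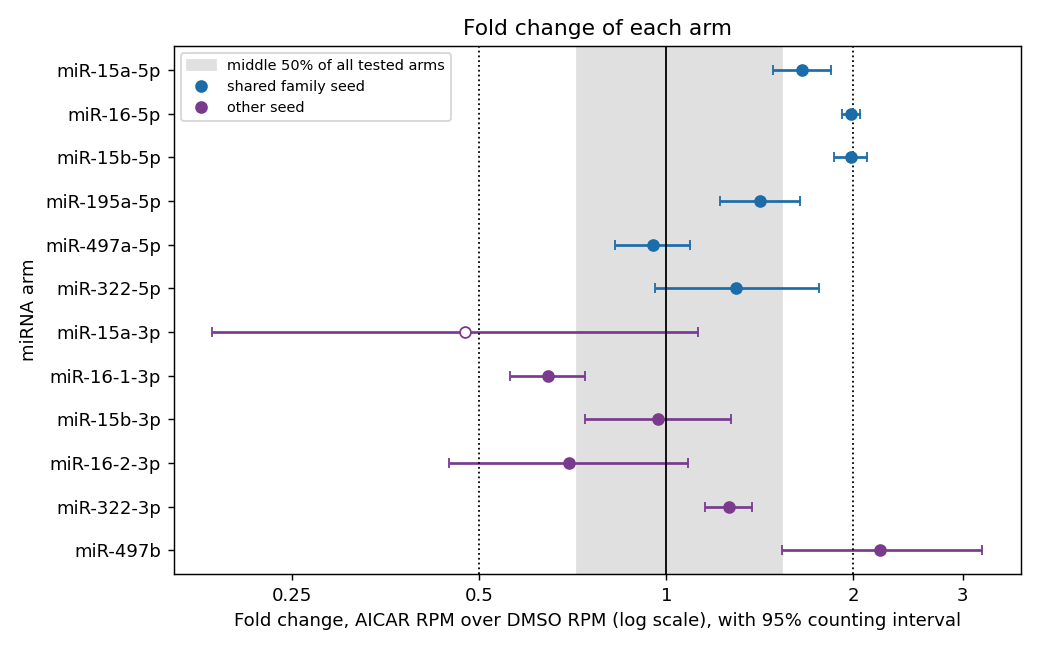
FC of the 12 arms with reads in both libraries on a log axis, with 95% counting intervals. Blue points carry the family seed and purple points do not, the open point (miR-15a-3p) did not reach 1 RPM, dotted lines mark FC 0.5 and 2, and the grey band holds the middle 50% of all 508 arms; miR-16-5p and miR-15b-5p lie together just under 2 and miR-16-1-3p lies at 0.644.

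The 3p arms of the Mir15 and Mir16 hairpins did not follow their 5p arms. These arms are mostly the passenger strands, which are discarded when the guide strand is loaded into Argonaute. miR-16-1-3p had 482 reads in DMSO and 347 in AICAR, or 25.5 and 16.5 RPM (FC 0.644, interval 0.559 to 0.741), and it was the 1 member arm whose interval lay wholly below 1. miR-16-2-3p had 50 and 39 reads, or 2.65 and 1.85 RPM (FC 0.698, interval 0.447 to 1.08). miR-15b-3p had 107 and 116 reads, or 5.67 and 5.50 RPM (FC 0.970, interval 0.739 to 1.27), and its FC was 1.17 when only tags of at least 21 nt were counted. miR-15a-3p had 17 and 9 reads (FC 0.474, interval 0.186 to 1.12).

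The number of 5p reads for each 3p read was accordingly higher in AICAR for each of these 3p arms. The same ratio was not computed over the other hairpins, so these values do not show a trait particular to the family. For miR-16-5p over miR-16-1-3p it went from 11.04 to 33.92, a ratio of 3.07 (interval 2.66 to 3.55). For miR-16-5p over miR-16-2-3p it went from 106 to 302, a ratio of 2.84 (interval 1.83 to 4.44). For miR-15b it went from 14.4 to 29.4, a ratio of 2.04 (interval 1.54 to 2.70), and for miR-15a from 31.3 to 109, a ratio of 3.49 (interval 1.46 to 8.93). With tags of at least 21 nt the ratio for miR-15b was 1.73 (interval 1.12 to 2.64). That for miR-15a was 2.80 with 1 mismatch allowed. With only the most abundant tags it was 13.1 (interval 3.58 to 71.4), where miR-15a-3p had 14 and 3 reads. The reads of the 3p arms from the Mir16 hairpins kept their proportion, 9.64 reads of miR-16-1-3p for each read of miR-16-2-3p in DMSO and 8.90 in AICAR (ratio 0.923, interval 0.581 to 1.48). The share of 5p reads was 91.7% in DMSO and 97.1% in AICAR for Mir16-1, 93.5% and 96.7% for Mir15b, 96.9% and 99.1% for Mir15a, and 99.1% and 99.7% for Mir16-2. For the Mir16 hairpins these shares count the common 5p tags at both, so each 5p share is an upper limit. Their change between the libraries therefore does not measure the arm use of either Mir16 hairpin alone.

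Mir322 differed from the other members in its arm use. Its 3p arm carried most of the reads, 882 in DMSO and 1242 in AICAR, or 46.7 and 58.9 RPM (FC 1.26, interval 1.16 to 1.38; 0.927 with hairpin reads as the denominator). The 5p arm made up 7.93% of its reads in DMSO (interval 6.39% to 9.82%) and 8.14% in AICAR (interval 6.80% to 9.72%), and with tags of at least 21 nt 3.67% and 4.33%. The ratio of 5p to 3p reads was 0.0862 in DMSO and 0.0886 in AICAR, and the ratio of these values, 1.03, had an interval of 0.750 to 1.41. The ratio of 3.07 for miR-16-5p over miR-16-1-3p lay outside this interval. Nearly all reads of miR-16-5p fitted both Mir16 hairpins, so that ratio does not measure the arm use of the Mir16-1 hairpin. The arm of Mir322 that carried the family seed was thus the less read one in both libraries.

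The 3p arms on chromosome 11 were nearly absent. miR-195a-3p had 0 reads in DMSO and 3 in AICAR, and miR-497a-3p had 1 read in DMSO and 0 in AICAR, so no FC is given for them. The 5p arm held 100% of the reads of Mir195a in DMSO and 99.4% in AICAR, and 99.7% and 100% of those of Mir497.

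miR-497b comes from the minus strand of the Mir497 locus. It had 43 reads in DMSO and 106 in AICAR, or 2.28 and 5.03 RPM (FC 2.21, interval 1.53 to 3.22). Of all reads from the Mir497 and Mir497b hairpins, 9.75% came from the minus strand in DMSO (interval 7.32% to 12.9%) and 20.1% in AICAR (interval 16.9% to 23.7%). The ratio of miR-497b to miR-497a-5p reads was 2.32 times as high in AICAR as in DMSO (interval 1.57 to 3.48). With hairpin reads as the denominator the FC of miR-497b was 1.62, below 2.

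Tags that fitted more than 1 member were found only between Mir16-1 and Mir16-2. They were 12 tags with 5291 reads in DMSO and 11709 in AICAR. The 11 tags of Mir497 and the 10 tags of Mir497b had 0 tags in common, although the hairpins overlap, since a tag has a strand and each strand gives its own sequence. Members and hairpins outside the family also had 0 tags in common, so that only miR-16-5p cannot be assigned to 1 locus.

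Of the miR-16-5p reads, 99.5% in each library fitted both hairpins. The tags that told the hairpins apart were those that ran into the bases behind the mature sequence or started before it. The most read tag of each kind is given here, with its last base, where the precursors differ, in capitals.

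Mir16-1 tag: uagcagcacguaaauauuggcguU
Mir16-2 tag: uagcagcacguaaauauuggcguA

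The tag of Mir16-1 had 12 reads in DMSO and 35 in AICAR (FC 2.61, interval 1.32 to 5.52), and that of Mir16-2 had 12 and 16 reads (FC 1.19, interval 0.530 to 2.76). These intervals overlap, and a base added after cleavage to the common 23 nt tag would give the same letters. Over all specific tags the counts were 12 and 38 reads for Mir16-1 and 16 and 24 reads for Mir16-2. The reads do not tell how much miR-16-5p each locus made.

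By locus, the sums of the reads that belonged to 1 place differed in FC, but these sums mix different arms. The chromosome 14 hairpins had 1049 reads of their own in DMSO and 1379 in AICAR (FC 1.18, interval 1.09 to 1.28), mainly those of both miR-15a arms and miR-16-1-3p, with the Mir16-1 tags above. The chromosome 3 hairpins had 1714 and 3587 reads of their own (FC 1.87, interval 1.77 to 1.98), mostly miR-15b-5p. On chromosome 14, miR-16-1-3p (FC 0.644) gave 482 and 347 of the reads. The matching 5p arms, miR-15a-5p and miR-15b-5p, had FC 1.65 and 1.98, a difference that was not stable to the tags counted. The plus strand of chromosome 11 had 694 and 893 reads (FC 1.15, interval 1.04 to 1.27), and the X chromosome hairpin had 962 and 1354 (FC 1.26, interval 1.16 to 1.37). The 2 host loci could not be compared for miR-16-5p itself, and the small RNA libraries do not measure Dleu2 or Smc4.

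The neighbours of Mir322 were the only other hairpins within 10 kb of a member. miR-503-5p, which lies just downstream in the same cluster, has bases 2 to 8 that match the family seed in all but the last base. It had 2848 reads in DMSO and 3879 in AICAR, or 151 and 184 RPM (FC 1.22, interval 1.16 to 1.28), more reads than both arms of Mir322 together. The FC of miR-322-5p was 1.29 and that of miR-322-3p 1.26, and the intervals of both included 1.22. Among the arms of the farther hairpins of the cluster that reached 1 RPM in a library, FC ran from 0.674 for miR-351-3p to 1.499 for miR-351-5p. The interval of miR-351-3p, 0.479 to 0.943, lay below 1, and that of miR-542-5p (FC 1.48), 1.04 to 2.13, lay above 1.

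Lengths differed between the libraries for the members as for other miRNAs. Tags shorter than 21 nt made up 6.38% of the seed-bearing reads in DMSO and 2.41% in AICAR, against 9.35% and 3.76% for all other hairpin arms. For miR-16-5p the share was 5.26% in DMSO and 1.38% in AICAR, and for miR-15a-5p it was 13.7% and 3.97%. The smallest differences among the 5 most read seed-bearing arms were those of miR-195a-5p, 4.05% and 3.21%, and miR-15b-5p, 6.04% and 3.82%. miR-322-5p and miR-15b-3p were mostly short in both libraries, with 63.2% and 55.5% of reads for the first and 60.7% and 52.6% for the second.

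The FC of a member therefore depended on the tag length counted. The forms of miR-15a-5p that differ only in their last bases are shown with the seed in capitals because they had opposite directions.

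22 nt form: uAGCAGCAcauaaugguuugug
21 nt form: uAGCAGCAcauaaugguuugu
20 nt form: uAGCAGCAcauaaugguuug

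The 22 nt form had 201 reads in DMSO and 563 in AICAR (FC 2.51, interval 2.13 to 2.96) and made up 37.8% and 57.3% of the reads of miR-15a-5p. The 21 nt form had 235 and 344 reads (FC 1.31, interval 1.11 to 1.55), and the 20 nt form had 42 and 23 reads (FC 0.490, interval 0.281 to 0.834). The most read form of miR-15a-5p was thus the 21 nt one in DMSO and the 22 nt one in AICAR. For miR-16-5p, reads of 22 nt went from 66.1% to 74.6% and those of 23 nt from 22.1% to 20.4%. Counting only tags of at least 21 nt, the FC was 2.06 for miR-16-5p, 2.03 for miR-15b-5p, 1.84 for miR-15a-5p, 1.43 for miR-195a-5p, 0.977 for miR-497a-5p and 0.690 for miR-16-1-3p. The same count over all other hairpin arms gave 1.44. Among the shorter tags, those of miR-16-5p had an FC of 0.521 (interval 0.427 to 0.634), those of miR-15a-5p 0.478 (interval 0.315 to 0.714) and those of all other arms 0.547. The shorter tags of miR-497a-5p, with 15 and 5 reads, had an FC of 0.298. Those of miR-15b-5p (FC 1.25, interval 0.951 to 1.65), miR-195a-5p (FC 1.12) and miR-322-5p (FC 1.14) were not lower, and their intervals included 1. Over the seed-bearing arms together the FC of shorter tags was 0.709.

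**Figure D3:**
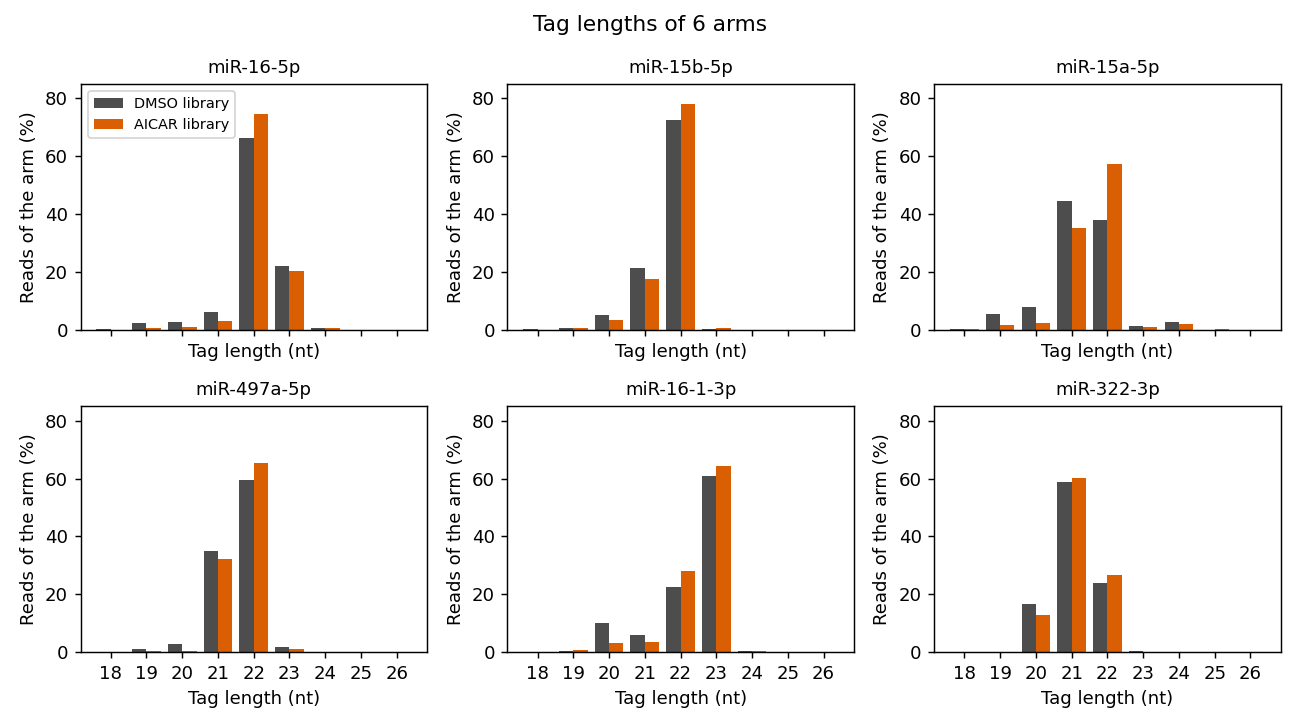
Share of the reads of 6 arms at each tag length from 18 to 26 nt, as bars starting at 0, grey for the DMSO library and orange for the AICAR library. The 22 nt bar of miR-15a-5p stands above its 21 nt bar only in AICAR, and the 20 nt bars are lower in AICAR in every panel.

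The 5′ end sets the seed, and it was nearly fixed in the abundant seed-bearing arms. The main start held 99.5% and 99.6% of miR-16-5p reads in DMSO and AICAR, 99.6% and 100% of those of miR-15a-5p, and 99.9% in each library for miR-15b-5p. miR-497a-5p was looser, with 4.79% of reads in DMSO and 4.27% in AICAR starting 1 nt later, which gives another seed. For miR-322-5p 94.7% and 92.7% of reads had the main start.

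miR-322-3p and miR-16-2-3p had a second start that was common, and miR-497b had one at a lower share. The reads of miR-322-3p had 3 starts, shown with the bases 2 to 8 of each in capitals.

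Main start: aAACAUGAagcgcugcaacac
1 nt earlier: aAAACAUGaagcgcugcaaca
2 nt earlier: cAAAACAUgaagcgcugcaaca

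The main start held 62.4% of miR-322-3p reads in DMSO and 63.4% in AICAR, the start 1 nt earlier 18.1% and 16.1%, and the start 2 nt earlier 19.5% and 20.5%. The Wilson intervals of each pair overlapped. The most read tag of miR-16-2-3p started 1 nt after the RefSeq entry, and the RefSeq start held 15 of its 50 reads in DMSO and 19 of its 39 reads in AICAR. For miR-497b the RefSeq start held 3 of 43 reads in DMSO (6.98%, interval 2.40% to 18.6%) and 16 of 106 in AICAR (15.1%, interval 9.51% to 23.1%), and these intervals overlap. The main tag of miR-497b began 1 nt later, so that most of its reads had the bases 2 to 8 shown here.

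miR-497b main tag: aCCACAGUgugguuuggacgug

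Bases added to the 3′ end after processing, which the precursor does not encode, were counted as tags with 1 to 3 extra bases that matched no hairpin as a whole. Added adenosines were most frequent on miR-195a-5p, at 13.8% of its reads in DMSO (interval 10.6% to 17.8%) and 17.4% in AICAR (interval 14.57% to 20.75%), and on miR-497a-5p, at 9.17% and 9.22%. They stood at 3.32% and 3.99% for miR-16-5p and at 0.831% and 1.84% for miR-15b-5p. Over the seed-bearing arms together they made up 3.71% and 4.27%, against 4.31% and 4.56% of all other arms. For each of these arms the most read tag with an added adenosine is given, with that base in capitals.

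miR-16-5p with A: uagcagcacguaaauauuggcgA
miR-195a-5p with A: uagcagcacagaaauauuggcaA
miR-497a-5p with A: cagcagcacacugugguuuguaA
miR-15b-5p with A: uagcagcacaucaugguuuacaA

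These had 142 and 365 reads for miR-16-5p (FC 2.30), 48 and 96 reads for miR-195a-5p (FC 1.79), 32 and 38 for miR-497a-5p (FC 1.06), and 12 and 52 for miR-15b-5p (FC 3.88, interval 2.04 to 7.98). The interval of the tag of miR-15b-5p, 2.04 to 7.98, overlapped that of the whole arm only at its lower end.

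Added uridines were most frequent on miR-322-3p, at 10.3% and 10.7%, and on miR-15b-3p, at 6.67% and 11.3%, and were at 3.60% and 4.55% for miR-15a-5p. The values of miR-15b-3p rest on 8 and 16 reads, and their intervals overlap (3.42% to 12.6% and 7.11% to 17.6%). For miR-16-5p added uridines were at 0.253% and 0.138%. Its precursors themselves continue with a uridine, so that 1 added uridine on the full-length form could not be seen. The same holds for miR-15b-5p and miR-195a-5p. Over all other hairpin arms, added uridines made up 4.19% and 4.94%.

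**Figure D4:**
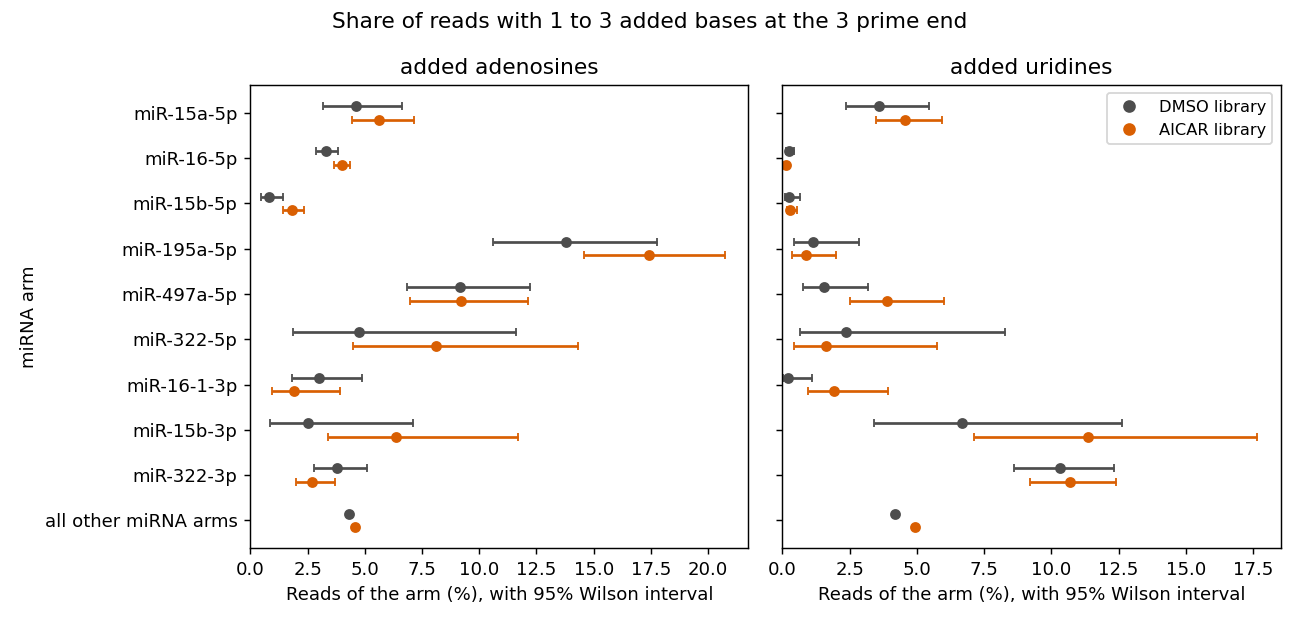
Share of reads with 1 to 3 added adenosines (left) or uridines (right) at the 3′ end, in percent with 95% Wilson intervals, grey for the DMSO library and orange for the AICAR library. The last line holds all other hairpin arms together; miR-195a-5p lies farthest right for adenosines at 13.8% and 17.4%, and miR-322-3p and miR-15b-3p for uridines.

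The denominator moved every FC of the family by the same factor. Against clean reads the median log2 FC of all 508 arms was 0.13. Against hairpin reads it was -0.31, a shift of -0.44, and with median-ratio scaling the shift was -0.13. On the hairpin-read scale the FC of miR-16-5p and that of miR-15b-5p were both 1.46, miR-15a-5p had 1.21, miR-195a-5p 1.04 and miR-497a-5p 0.699. On that scale 24 of all 508 arms had an FC of at least 2 and 112 an FC of 0.5 or lower, against 61 and 51 with clean reads. The order of the members by FC and the ratios between them do not depend on this choice.

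**Figure D5:**
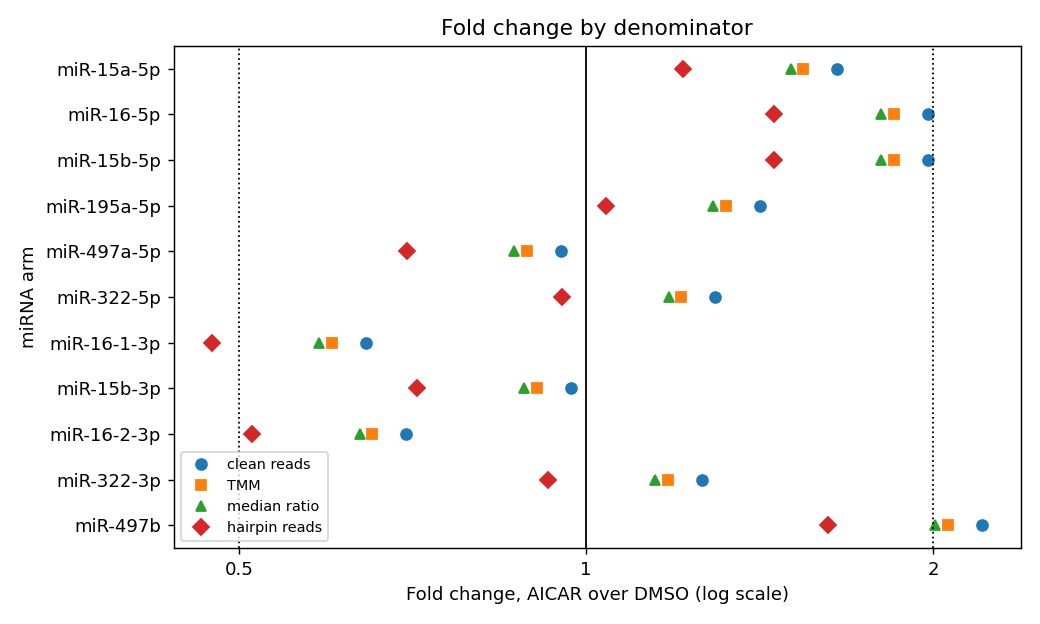
FC of the 11 tested member arms on a log axis under 4 denominators, with dotted lines at 0.5 and 2. Within an arm the points differ by the same factors. Hairpin reads place miR-322-5p and miR-322-3p just below 1 (0.952 and 0.927) and miR-16-1-3p below 0.5. The points of miR-16-5p, miR-15b-5p, miR-15a-5p, miR-195a-5p (lowest at 1.04) and miR-497b lie above 1 under all 4.

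The sites that the shared seed can pair with were read from the annotation, as background to the seed sequences and not as a result of the libraries. The letters TGCTGCT, the complement of bases 2 to 8, were searched on the transcript strand of the longest 3′ UTR of each protein-coding gene. They occurred in 4266 of 21020 genes (20.3%), and in 33.5% of those with a 3′ UTR of at least 1000 nt. The 10 cell-cycle and survival genes looked at, Ccnd1, Ccnd2, Ccnd3, Ccne1, Cdk6, Cdc25a, Wee1, Chek1, E2f3 and Bcl2, were listed as known targets of the family, all 10 held a site, and their 3′ UTRs were long, with a median of 2264 nt against 961 nt over all genes. Sites in these genes were thus fixed by the choice of the list. A match describes letters in a window and not binding, and mRNA levels were not measured in these libraries. The sites below lie in 3′ UTR exons on GRCm38, and the complement of the seed is in capitals. They were picked from sites followed by an A, and the other sites of the listed genes are not shown. A site followed by an A was present in 8 of the 10 genes, against 4.04% of all genes. This contrast was likewise set by the choice of known targets, and the 4.04% was not limited to genes with long 3′ UTRs.

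Ccnd2, cyclin D2: aatgtttcacggtgTGCTGCTattttaga
Ccne1, cyclin E1: tcttattttgtaagTGCTGCTatgtctat
Wee1, a kinase that holds back entry into mitosis: ttgccttgtgaattTGCTGCTattttagt
Chek1, the checkpoint kinase of DNA replication: cctggtgaatagagTGCTGCTatgtgaca
Bcl2, an inhibitor of apoptosis: aataagaaaccctgTGCTGCTatcctgcc

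The capitals of the Ccnd2 site lie at chr6:127128542-127128548 on the minus strand, in exon 5 of 5. Those of Ccne1 lie at chr7:38098024-38098030 on the minus strand, in exon 12 of 12. The Wee1 site lies at chr7:110142668-110142674 on the plus strand, in exon 11 of 11. The Chek1 site lies at chr9:36710291-36710297 on the minus strand, in exon 12 of 12. The Bcl2 site lies at chr1:106540799-106540805 on the minus strand, in exon 2 of 2.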

How the data were processed

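The 2 deposited files hold read counts per distinct tag of one DMSO and one AICAR library of J1 ES cells. Per the study's methods, the authors selected RNA by size, ligated adaptors, sequenced on a HiSeq and removed low-quality and contaminant reads before the counts were deposited. The labels name the build mm9, but the counts carry no coordinates, and the kit in the labels is one for RNA libraries. Tags were matched without mismatch to the miRNA hairpins of GENCODE vM21 on GRCm38, and mature names and sequences were taken from RefSeq (GRCm38.p6). The symbols Mir1950 to Mir1958 (10 hairpins) also begin with Mir195 but belong to other miRNAs and were left out.

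Each arm was counted around its most abundant tag over both libraries (start within 2 nt, end within 4 nt), a tag counted in full for each arm it fitted, and arms with the same most abundant tag were merged. Counts were divided by clean reads to give RPM, and an arm was compared when either library held at least 1 RPM of it. The FC thresholds of 2 and 0.5 followed the study. Intervals at 95% were exact (Clopper-Pearson) for FC, exact conditional for ratios of arms and Wilson for shares, and a count of 0 was bounded at 3 reads. All member arms are named, with the hairpins within 10 kb, the other hairpins with the seed and the 3 arms closest to miR-16-5p in level. Members and lists were chosen with earlier results of these data known. The counting was tested on simulated data. Python 3.11.15, numpy 2.4.6, scipy 1.17.1 and matplotlib 3.10.9 were used, and edgeR 4.0.16 in R 4.3.3 gave the TMM factors. Alternatives were other denominators, identical tags only, the main 5′ end only, RefSeq references, 1 mismatch, tags of at least 21 nt, shared tags divided, 10 RPM and no filter.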

Additional observations from a re-analysis of the deposited data

How the results depend on the processing

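The FC of the summed seed-bearing arms, 1.88 against clean reads, was above 1 under all 9 alternatives. It was 1.38 against hairpin reads, 1.76 with TMM, 1.71 with median-ratio scaling, 2.13 with identical tags only and 1.96 with tags of at least 21 nt, and moved by less than its counting interval under the others. The number of member arms past 2-fold, 1 in the report, was 4 with identical tags only, 3 with tags of at least 21 nt, 2 with 1 mismatch, 2 with no filter, and 0 with the main 5′ end only or at 10 RPM. Over all arms 22% passed 2-fold in either direction in the report and 27.2%, 21.6%, 20.7%, 30.3%, 23.1% and 17.6% under these settings in the same order. Against hairpin reads it was 1 as well, but the arm was miR-16-1-3p (FC 0.474) and not miR-497b (FC 1.62), and the higher and lower calls over all arms were 24 and 112. They were 50 and 65 with TMM, 48 and 68 with median-ratio scaling and 72 and 33 with tags of at least 21 nt, against 61 and 51. miR-16-5p and miR-15b-5p lie close to the threshold, so whether they count as 2-fold depends on the tags counted: their FC ran from 1.46 to 2.24 and from 1.46 to 2.13. Of the 11 tested arms, miR-497a-5p (0.699 to 1.05), miR-322-5p (0.952 to 1.57), miR-15b-3p (0.713 to 1.17) and miR-322-3p (0.927 to 1.36) had values on both sides of 1, and the other 7 did not. The cause of these shifts was not tested beyond the choice itself. No paired analysis was possible because each condition had 1 library, and leaving out a library was not possible either. Arms with few reads had wide intervals, as miR-15a-3p (0.186 to 1.12).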

Other observations

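The hairpin arms closest in level to miR-16-5p over both libraries, by distance in log2 RPM, were miR-23a-3p, miR-291b-5p and Mir378a-3p. miR-23a-3p had 256 RPM in DMSO and 594 RPM in AICAR (FC 2.32), at a distance of 0.17 from miR-16-5p. miR-291b-5p, of the miR-290 cluster that mouse ES cells express strongly, had 237 and 477 RPM (FC 2.01), and Mir378a-3p had 264 and 430 RPM (FC 1.63). With 2 libraries the likeness describes these levels and nothing more.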
